A study of Homo sapiens with 4 samples.

Results

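Neural microexon host genes are genes whose coding sequence contains a very short exon that neurons include and most other cells skip. The 44 host genes described here were chosen by symbol, as a list of known hosts, and all 44 were found among the 40188 genes with a value in the files. The list was chosen with earlier results of these data known, so shares of hosts set beside all tested genes describe this list only. They were grouped by function into adhesion (13 genes), cytoskeleton (13), trafficking (9) and transcription and translation (9). The values are gene-level read counts and cRPKM, a corrected RPKM, that is, reads scaled by a length set per gene and by library size. They measure transcript abundance and do not show whether any exon was included.

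The libraries came from HEK293 cells, an immortalised human embryonic kidney line that expresses epithelial and some neuronal genes. Stable lines carried a doxycycline-inducible SRRM4, SRRM3, MSI1 or empty vector, and all 4 lines, the empty-vector control included, received doxycycline at 1 µg/mL for 24 h in medium with tetracycline-free serum. Each line gave 1 library of polyA-selected, stranded RNA-seq, so there was no replicate, no test was made across libraries, and an effect of a transgene cannot be told apart from other differences between the lines. Whether each line was a single clone is not stated in the sources used here.

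SRRM3 and SRRM4 are related serine/arginine-rich splicing factors that act through a shared domain to promote inclusion of microexons, SRRM4 mostly in neurons and SRRM3 also in retinal photoreceptors. MSI1 (Musashi) is an RNA-binding protein of neural progenitors and photoreceptors that recognises UAG-containing RNA. Microexons usually keep the reading frame, so their inclusion adds a few residues to a protein, often at a surface where it meets its partners in vesicle traffic, the cytoskeleton or the synapse.

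The short exons of these genes were read from the GENCODE 29 annotation on GRCh38 as internal coding exons of 3 to 27 bases. Such exons were annotated in 41 of the 44 genes and numbered 84 in all; KIF2A, TRIO and ZMYND8 had none under these criteria. Since the genes were listed as hosts, this count follows from the choice. PTPRD held 7, of which 2 are overlapping forms at the same place, and PTPRS and CLASP2 held 6 each. The annotation does not say which of these exons are neural, and no exon was measured in these libraries. Of the 84, 77 were annotated with the same ends in only some of the coding transcripts that span them, and 7 in every one. A transcript whose exon has other ends there, as with the 2 overlapping PTPRD forms, counts as lacking it.

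Some microexons of paralogous hosts had the same length and related sequence. The following pairs are examples picked with their identity known, and they let paralogs be compared at the exon itself. Some pairs with more identity than the MEF2A and MEF2C pair are not shown. Capitals mark bases that are identical at the same position in both members of a pair. All sequences are given 5′ to 3′ on the gene's own strand.
PTPRD, chr9:8523513-8523524, minus strand: AGCTgCGAGAAG
PTPRS, chr19:5256108-5256119, minus strand: AGCTtCGAGAAG
EIF4G1, chr3:184316713-184316733, plus strand: GGAGGATTCAGgtCTcTgCAG
EIF4G3, chr1:20982388-20982408, minus strand: GGAGGATTCAGacCTaTcCAG
PPFIA1, chr11:70365941-70365967, plus strand: GAagaTGAGGAGGGaAGCTGGGCTCAG
PPFIA4, chr1:203061652-203061678, plus strand: GAcagTGAGGAGGGcAGCTGGGCTCAG
KIF1A, chr2:240734719-240734745, minus strand: GCagTTTCTTGATtcGGAcATaCCTAG
KIF1B, chr1:10355370-10355396, plus strand: GCtcTTTCTTGATaaGGAtATtCCTAG
CLASP1, chr2:121427404-121427430, minus strand: GATCcagATCTGCTAATcCtgcTGGTG
CLASP2, chr3:33588705-33588731, minus strand: GATCacaATCTGCTAATaCcatTGGTG
MEF2A, chr15:99703362-99703385, plus strand: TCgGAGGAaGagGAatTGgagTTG
MEF2C, chr5:88730211-88730234, minus strand: TCtGAGGAtGtcGAccTGcttTTG

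Identity was 11 of 12 bases for PTPRD and PTPRS, 17 of 21 for EIF4G1 and EIF4G3, 23 of 27 for PPFIA1 and PPFIA4, 21 of 27 for KIF1A and KIF1B, 20 of 27 for CLASP1 and CLASP2, and 15 of 24 for MEF2A and MEF2C. APBB1 (chr11:6401977-6401982, minus strand) and APBB2 (chr4:40842370-40842375, minus strand) share an identical exon of 6 bases, agagag. APBB1 is the amyloid precursor-binding adaptor FE65, and APBB2 is its close relative.

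A second set is shown because the gene-level results below turn on these hosts, or because the exon is a textbook neuronal one. The exon of SRC is the N1 exon of neuronal SRC, a tyrosine kinase, and the exon of ITSN1, an endocytic scaffold, lies in its first SH3 domain. The shorter exon of L1CAM lies in the part of the gene that encodes the cytoplasmic tail.
SRC, chr20:37386460-37386477, plus strand: gaggaaggtggatgtcag
ITSN1, chr21:33802430-33802444, plus strand: gttaaaggggaatgg
CPEB4, chr5:173943026-173943049, plus strand: caaggacatatgggcgaaggagag
L1CAM, chrX:153863368-153863379, minus strand: gtccctggagag
L1CAM, chrX:153873228-153873242, minus strand: atgaaggacaccatg
ROBO2, chr3:77527403-77527414, plus strand: ctcgccctgttg
SNAP91, chr6:83601585-83601599, minus strand: accttttgggagagg
SNAP91, chr6:83614857-83614862, minus strand: tgaagg

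In the annotation the SRC exon was in 1 of 4 coding transcripts that span it, the ITSN1 exon in 4 of 10, the CPEB4 exon in 2 of 7 and the 12-base exon of L1CAM in 1 of 5. Across the 41 genes, 78 of the 84 exons (92.9%) had a length divisible by 3. The share was 62.2% among 2098 exons of the same size range in 18780 other protein-coding genes of the files, of which 1505 (8.0%) held one. The genes were listed as hosts of microexons, which usually keep the reading frame, so the choice of list favours this difference. The most frequent lengths in the host genes were 27 bases (15 exons), then 12 and 18 bases (11 each) and 9 bases (10). In the other genes 27 bases was also the most frequent, with 14.59% of exons against 17.86% in the hosts. Shares at 9, 12 and 18 bases were 11.9%, 13.1% and 13.1% in the hosts, against 4.58%, 6.15% and 6.1%. At 21 bases the host share was the lower one, 4.76% against 9.87%. The host genes also have more annotated coding transcripts, with a median of 9 per gene against 3 for the other genes, which gives a short exon more chances to be listed.

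**Figure D1:**
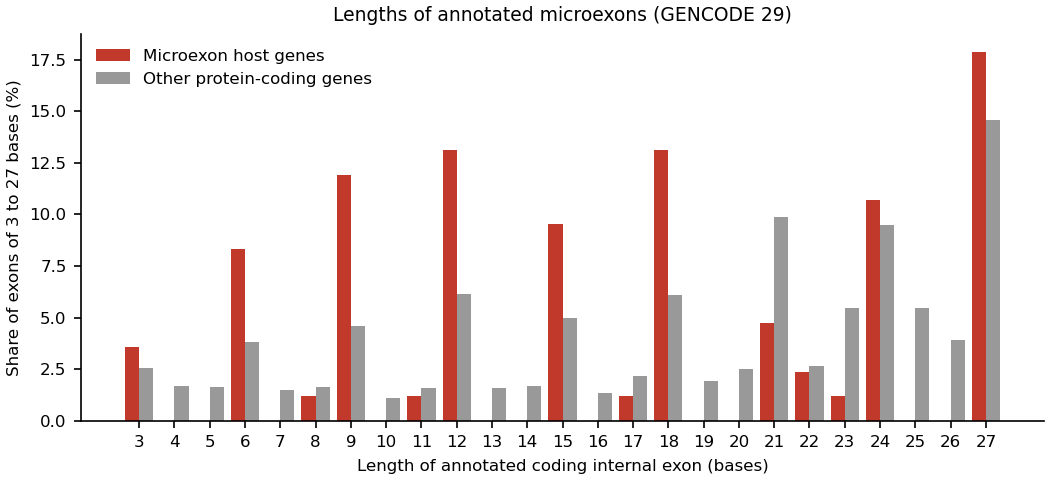
Share of annotated coding internal exons of 3 to 27 bases (vertical axis, %) by exon length (horizontal axis, bases) in the microexon host genes (84 exons, red) and in other protein-coding genes (2098 exons, grey). The red bars stand almost entirely at multiples of 3, with 15 exons at 27 bases and 6 exons at other lengths, while grey bars are present at every length.

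Total counts were 60288244 for SRRM4, 62892722 for SRRM3, 63003121 for MSI1 and 62083851 for the empty vector, and a count of 3 or fewer was taken as the floor. Each transgene was highest in its own library: SRRM4 was at 63.78 cRPKM in SRRM4 cells against 0.39 in empty-vector cells, SRRM3 at 38.53 in SRRM3 cells against 0.49, and MSI1 at 62.43 in MSI1 cells against 8.38. SRRM3 was also higher in SRRM4 cells, at 1.39 cRPKM (298 reads) against 0.49 (109 reads) in empty-vector cells, a count ratio of 2.815 (2.253 to 3.539). SRRM4 had 95 reads in SRRM3 cells and 6 in MSI1 cells, against 201 in empty-vector cells. Of 8 markers of HEK293 cells, 7 averaged at least 1 cRPKM, with VIM (vimentin) between 909.49 and 1211.14 and KRT8 (keratin 8) between 288.97 and 335.36; PAX2 was the exception. Of 8 neuron markers only MAP2 and TUBB3 reached a mean of 1 cRPKM, and DCX stayed at or under the floor in all 4 libraries. Summed over the list, neuron markers came to 19.12 cRPKM in SRRM4, 21.17 in SRRM3, 24.68 in MSI1 and 15.12 in the empty vector, most of it TUBB3. COL1A1 was the only one of 6 fibroblast markers to reach a mean of 1 cRPKM (3.23 to 4.29), and none of 5 blood markers did; COL1A2, DCN, PTPRC, HBB and CD3E were at or under the floor in all libraries.

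Levels of the 44 genes ran from 0.04 cRPKM (PPFIA2 in SRRM3) to 211.65 cRPKM (EIF4G1 in SRRM4). A mean of at least 1 cRPKM over the 4 libraries was reached by 42 of them, which were compared further; PPFIA2 and PPFIA4 were not. The median of the 42 means was 13.32 cRPKM, against 10.98 for the 12703 genes that passed the same filter. The 42 genes also had a long length implied by count and cRPKM, which need not be the length of the transcript. Its median was 5538 bases against 2765 for all tested genes, which gives the hosts more reads at a given level. PTPRK had an implied length of only 563 bases, with 795 to 886 reads behind a level between 23.42 and 24.98 cRPKM. PTPRD had the fewest reads of the 42, 113 to 144, followed by L1CAM with 218 to 872 and ROBO2 with 268 to 554.

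In the transcription and translation group, EIF4G1, a scaffold of the translation initiation complex, was the most abundant host of all, at 211.65 cRPKM in SRRM4, 199.37 in SRRM3, 167.40 in MSI1 and 188.33 in the empty vector. Its paralog EIF4G3 was at 64.32, 60.15, 51.50 and 61.96 cRPKM in the same order of libraries. Both were lowest in MSI1, yet EIF4G3 was at 30.39%, 30.17%, 30.76% and 32.9% of the EIF4G1 level in the same order. APBB1 lay between 21.64 and 22.60 cRPKM in all libraries. The MEF2 genes, which encode neuronal and muscle transcription factors, were led by MEF2A at 13.60, 13.02, 14.59 and 13.06 cRPKM in SRRM4, SRRM3, MSI1 and the empty vector. MEF2C and MEF2D averaged 4.17 and 4.16 cRPKM, and CPEB4, a cytoplasmic polyadenylation factor, was lowest of the group with a mean of 3.24.

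In the trafficking group, AP2M1, the mu subunit of the clathrin adaptor AP-2, was at 162.03 cRPKM in SRRM4, 167.95 in SRRM3, 147.41 in MSI1 and 153.88 in the empty vector. DNM2, the dynamin that severs endocytic vesicles, was at 70.03, 67.40, 65.89 and 61.85 cRPKM in the same order, and AP1S2, a sigma subunit of AP-1, at 38.90, 42.73, 37.45 and 41.23. The clathrin assembly protein SNAP91, a largely neuronal gene, was the lowest, with a mean of 3.14 cRPKM.

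In the cytoskeleton group, ENAH, an actin regulator of the Ena/VASP family, was at 97.66 cRPKM in SRRM4, 86.89 in SRRM3, 101.51 in MSI1 and 93.60 in the empty vector. KIF2A, a microtubule-depolymerising kinesin, was at 31.79, 32.85, 35.94 and 37.21 cRPKM in the same order, and ABI1, a subunit of the WAVE complex, at 21.06, 20.08, 24.65 and 20.11. The ankyrin genes ANK2 and ANK3, which tether membrane proteins to spectrin, were lowest with means of 3.42 and 2.15 cRPKM.

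In the adhesion group, the receptor tyrosine phosphatases PTPRF and PTPRK and the focal adhesion kinase PTK2 were the highest. PTPRF was at 26.85 cRPKM in SRRM4, 25.73 in SRRM3, 29.46 in MSI1 and 26.68 in the empty vector. PTPRK was at 23.42, 23.86, 24.98 and 24.09 cRPKM, and PTK2 at 19.44, 20.56, 22.50 and 22.33, in the same order. This group held 5 of the 6 hosts under 3 cRPKM in every library, ROBO2, L1CAM, PTPRD, PPFIA4 and PPFIA2; the other was ANK3. PPFIA4, a liprin, had 54 reads in SRRM4, 54 in SRRM3, 47 in MSI1 and 44 in the empty vector, and the liprin PPFIA2 had 48, 14, 19 and 28. The count ratio of PPFIA2 between SRRM4 and SRRM3 was 3.58, with a 95% counting interval of 1.94 to 7.03, at 0.15 and 0.04 cRPKM, a level at which the gene was not tested.

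**Figure D2:**
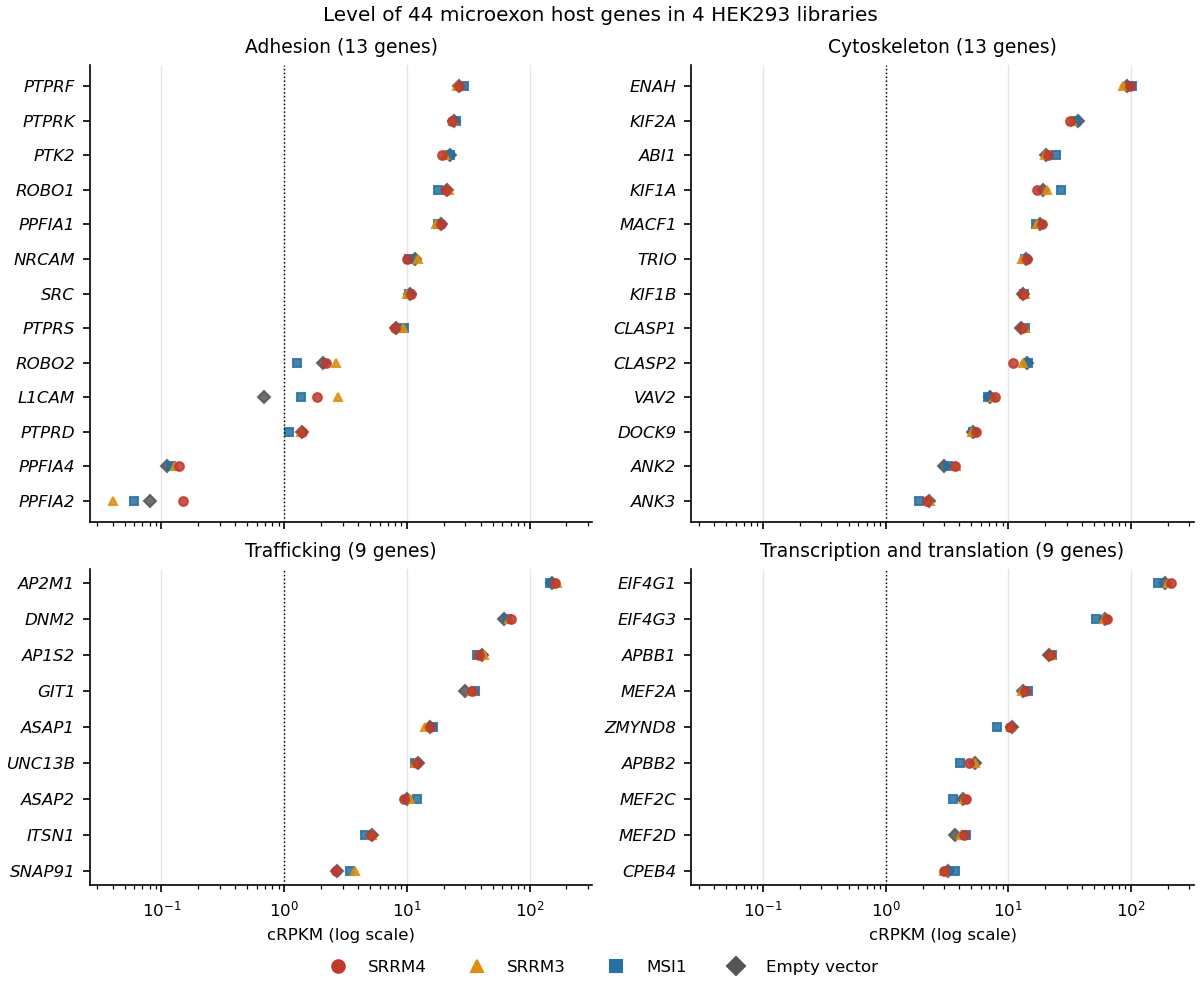
Level of each of the 44 host genes (horizontal axis, cRPKM, log scale) in the SRRM4, SRRM3, MSI1 and empty-vector libraries, in 4 panels by function and sorted by mean level; the dotted line marks 1 cRPKM. The 4 symbols of a gene nearly coincide for most genes, and L1CAM, at 2.74 cRPKM in SRRM3 cells against 0.69 for the empty vector, is the most spread of those that passed the filter.

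Most host genes kept nearly the same level in all 4 libraries. The highest library was less than 25% above the lowest for 33 of the 42 (78.6%), compared with 69.0% of all 12703 tested genes and 72.1% of the protein-coding ones. Folds here and below are taken after adding a pseudocount of 0.5 cRPKM to each value, unless called count ratios, and the pseudocount understates differences of low genes. The median spread was 1.17-fold in the host genes and 1.18-fold over all tested genes. The highest library was at least 25% above the lowest for 9 hosts. L1CAM was the widest of them at 2.72-fold, then ROBO2 at 1.76-fold and KIF1A at 1.535-fold. SNAP91, CLASP2, ZMYND8, APBB2, ASAP2 and EIF4G1 followed, between 1.365-fold and 1.264-fold. MSI1 was the highest library for 16 of the 42 genes and the lowest for 15, whereas the empty vector was the highest for 3 and the lowest for 7. Over all tested genes MSI1 was the highest for 33.7% and the lowest for 26.6%, and the empty vector for 18.5% and 21.3%.

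**Figure D3:**
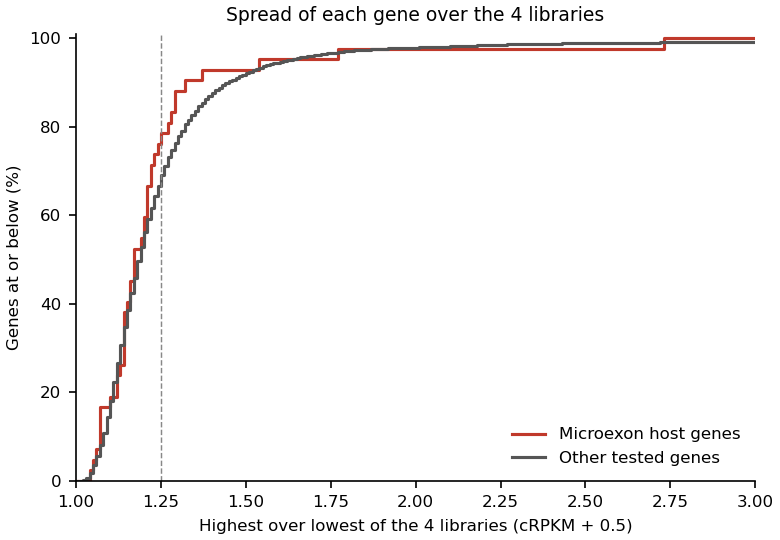
Cumulative share of genes (vertical axis, %) by the ratio of the highest to the lowest of the 4 libraries (horizontal axis, cRPKM + 0.5) for the 42 host genes that passed the filter (red) and the other tested genes (grey); the dashed line marks a difference of 25%. The red curve stands at 78.6% at the dashed line, against 69.0% for all tested genes, and its last step at 2.72 is L1CAM.

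For each pair of libraries a gene was called when it was at least 25% higher, or lower by the same factor (0.32 on the log2 scale), and the exact 95% interval of its count ratio excluded 1. The rule is one of size plus counting error. The intervals cover counting error only, since reads are not independent molecules, and they compare libraries, not conditions. In bulk RNA, fewer cells that express a gene and less RNA per cell cannot be told apart. The 3 comparisons with the empty vector share that library, so a deviation of it would enter each of them. Over the 4 comparisons made, 7 host genes were called at least once and 35 in none, while 21.6% of all tested genes were called at least once.

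L1CAM, a neural adhesion molecule of axon growth, stood out among the hosts. It had 568 reads (1.86 cRPKM) in SRRM4, 872 (2.74) in SRRM3, 438 (1.37) in MSI1 and 218 (0.69) in the empty vector. All 3 induced libraries were above the empty vector, SRRM3 most of all. The count ratio over the empty vector was 2.68 (2.29 to 3.15) in SRRM4, 3.95 (3.4 to 4.60) in SRRM3 and 1.98 (1.68 to 2.34) in MSI1. These ratios share the empty-vector reads, so their intervals do not compare the induced libraries with each other. Taken directly over MSI1, the L1CAM count ratio was 1.355 (1.194 to 1.539) in SRRM4 and 1.994 (1.776 to 2.242) in SRRM3. SRRM4 was below SRRM3, with a ratio of 0.680 (0.610 to 0.756). L1CAM passed the filter only through the induced libraries, as its empty-vector level was under 1 cRPKM, so its difference was favoured by the filter. The gene lies on chromosome X and overlaps LCA10 on the opposite strand, which had 7 to 15 reads in any library. The 8 neuron markers did not all follow the order of L1CAM. Their sum, given above and mostly TUBB3, was higher in the 3 induced libraries than in the empty vector. SNAP25 had 31 reads in SRRM4, 23 in SRRM3, 1 in MSI1 and 2 in the empty vector. STMN2 had 9, 40, 1 and 1 in the same order, highest in SRRM3 as L1CAM was. By contrast, SYT1 had 50, 25, 25 and 72, GAP43 had 71, 61, 114 and 78, and RBFOX3 had 11, 9, 20 and 12. MAP2 was at 1.59 cRPKM in SRRM4, 2.34 in SRRM3, 2.12 in MSI1 and 1.93 in the empty vector. The part of these markers in the L1CAM difference was not tested. NRCAM, the other L1-family host, was at 10.12 cRPKM in SRRM4, 12.39 in SRRM3, 10.50 in MSI1 and 11.63 in the empty vector. L1CAM thus came to 18.4%, 22.1%, 13.1% and 5.93% of the NRCAM level in the same order. The L1-family paralog NFASC, off the list and named after its values were seen, followed the order of L1CAM. It had 136, 237, 86 and 62 reads, at 0.10 to 0.37 cRPKM, below the filter. Its count ratio over the empty vector was 2.26 (1.66 to 3.10) in SRRM4 and 3.77 (2.84 to 5.075) in SRRM3. In MSI1 the NFASC ratio was 1.37 (0.975 to 1.93). CHL1, also of this family, was at 0.01 cRPKM in every library.

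SRRM4 over the empty vector compares host transcripts between the SRRM4 library and the empty-vector library. Of the host genes, 1 was called higher and 1 lower, where 2.28% and 2.16% of all tested genes were called, and the 2 calls make 4.76% of the 42 hosts against 4.45% of tested genes in either direction. The higher one was L1CAM. The lower one was CLASP2, a microtubule plus-end protein, which had 10.88 cRPKM (4545 reads) in SRRM4, against 14.21 cRPKM (6113 reads) in the empty vector, a count ratio of 0.766 (0.737 to 0.796). CLASP2 was at 13.07 in SRRM3 and 14.47 in MSI1, so SRRM4 was the low library. Its paralog CLASP1 lay between 12.81 and 13.68 cRPKM in all 4, and CLASP2 came to 84.7% of the CLASP1 level in SRRM4, against 110.9% in the empty vector.

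The next largest host differences in SRRM4, by function, did not reach the threshold. ANK2 was at 3.68 cRPKM in SRRM4 and 3.02 in the empty vector, MEF2D at 4.37 and 3.68, PTK2 at 19.44 and 22.33, DNM2 at 70.03 and 61.85, GIT1 (a GTPase-activating scaffold) at 33.89 and 29.96, and EIF4G1 at 211.65 and 188.33. Of the 42 hosts, 30 lay within 1.1-fold of the empty vector (71.4%, against 68.6% of tested genes). The median log2 difference of the hosts was 0.0027, and that of all tested genes was -0.0035. By function the medians were 0.00 for adhesion, 0.034 for cytoskeleton, -0.0076 for trafficking and 0.054 for transcription and translation.

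SRRM3 over the empty vector makes the same comparison for the SRRM3 library. Host genes called higher numbered 2, L1CAM and SNAP91, and 0 were called lower, where 5.48% and 2.99% of tested genes were called; the 4.76% of hosts called compares with 8.47% of tested genes in either direction. SNAP91 had 3.80 cRPKM (1051 reads) in SRRM3, against 2.70 (738 reads) in the empty vector, a count ratio of 1.41 (1.28 to 1.55). It was at 2.65 in SRRM4 and 3.42 in MSI1, so the SRRM4 and empty-vector libraries were low and the other two high. L1CAM was the only host past 2-fold with an interval excluding 1 in any comparison, with a log2 difference of 1.45 in SRRM3 and 0.99, just short of 2-fold, in SRRM4. Past 2-fold and higher were 0.362% of tested genes in SRRM4, 0.433% in SRRM3 and 0.213% in MSI1 over the empty vector, and 0.11% in SRRM4 over SRRM3. In either direction these shares were 0.417%, 0.52%, 0.354% and 0.228% in the same order. With a pseudocount of 2, SNAP91 no longer reached the 25% threshold (log2 difference 0.30).

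Among the other hosts in SRRM3, ROBO2, a receptor for the guidance cue Slit, was at 2.64 cRPKM in SRRM3 and 2.09 in the empty vector, with a count ratio of 1.27 (1.11 to 1.44) but a log2 difference of 0.28 once the pseudocount was added, under the threshold. ANK2 was at 3.74 cRPKM in SRRM3 and 3.02 in the empty vector, GIT1 at 34.20 and 29.96, MEF2D at 4.09 and 3.68, CPEB4 at 3.01 and 3.23, and KIF2A at 32.85 and 37.21. Within 1.1-fold of the empty vector were 34 of the 42 hosts (81.0%), against 58.7% of tested genes. All 9 transcription and translation hosts were within that range. The median log2 difference was 0.015 for the hosts and 0.0029 for all tested genes, and by function it was -0.014 for adhesion, -0.0021 for cytoskeleton, 0.076 for trafficking and 0.00 for transcription and translation.

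MSI1 over the empty vector gave the most host calls, 2 higher and 3 lower, where 6.59% and 4.12% of tested genes were called. The 5 make 11.9% of the hosts, close to the 10.7% of tested genes called in either direction. The higher ones were L1CAM and KIF1A, an axonal kinesin that carries synaptic vesicle precursors. KIF1A had 26.78 cRPKM (14819 reads) in MSI1, against 19.07 (10398 reads) in the empty vector, a count ratio of 1.40 (1.37 to 1.44). It was at 17.27 in SRRM4 and 20.53 in SRRM3, so MSI1 alone was high. KIF1B lay between 13.21 and 13.72 cRPKM in all 4, and KIF1A came to 198.5% of the KIF1B level in MSI1, against 143.9% in the empty vector.

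The lower hosts in MSI1 were ROBO2, ZMYND8 and APBB2. ROBO2 had 1.28 cRPKM (268 reads) in MSI1, against 2.09 (432 reads) in the empty vector, a count ratio of 0.611 (0.523 to 0.714). ROBO1 was at 18.05 in MSI1 and 21.26 in the empty vector, and MSI1 was the low library for both receptors. ZMYND8, a chromatin reader that binds modified histones, had 8.14 cRPKM (2533 reads) in MSI1, against 10.63 (3260 reads) for the empty vector, a depth-scaled ratio of 0.766 (0.727 to 0.807). APBB2 had 4.07 cRPKM (1055 reads) in MSI1, against 5.36 (1370 reads) for the empty vector, a depth-scaled ratio of 0.759 (0.700 to 0.823). Both lay nearer to the empty vector in the SRRM libraries, ZMYND8 at 10.36 in SRRM4 and 10.50 in SRRM3, and APBB2 at 4.82 and 5.36. The annotated genes that overlap ROBO2, ZMYND8 and APBB2 had at most 5 reads in a library. With a pseudocount of 2 none of the 3 reached the threshold, ROBO2 and ZMYND8 just under it at log2 differences of -0.32 and APBB2 at -0.28.

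Short of the threshold in MSI1, SNAP91 was at 3.42 cRPKM in MSI1 and 2.70 in the empty vector, ABI1 at 24.65 and 20.11, and GIT1 at 36.08 and 29.96. By function the median log2 difference was -0.0092 for adhesion, 0.025 for cytoskeleton, 0.082 for trafficking and -0.17 for transcription and translation, beside 0.0015 for all 42 hosts and 0.016 for all tested genes. In the transcription and translation group 5 of 9 genes were below 0 and 1 of 9 lay within 1.1-fold of the empty vector, against 20 of all 42 hosts (47.6%) and 55.4% of tested genes. The summed level of that group was 280.08 cRPKM in MSI1, against 312.15 in the empty vector; EIF4G1 makes up most of it. The sum over all 44 hosts was 1089.92 cRPKM in SRRM4, 1077.59 in SRRM3, 1040.88 in MSI1 and 1052.90 in the empty vector.

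**Figure D4:**
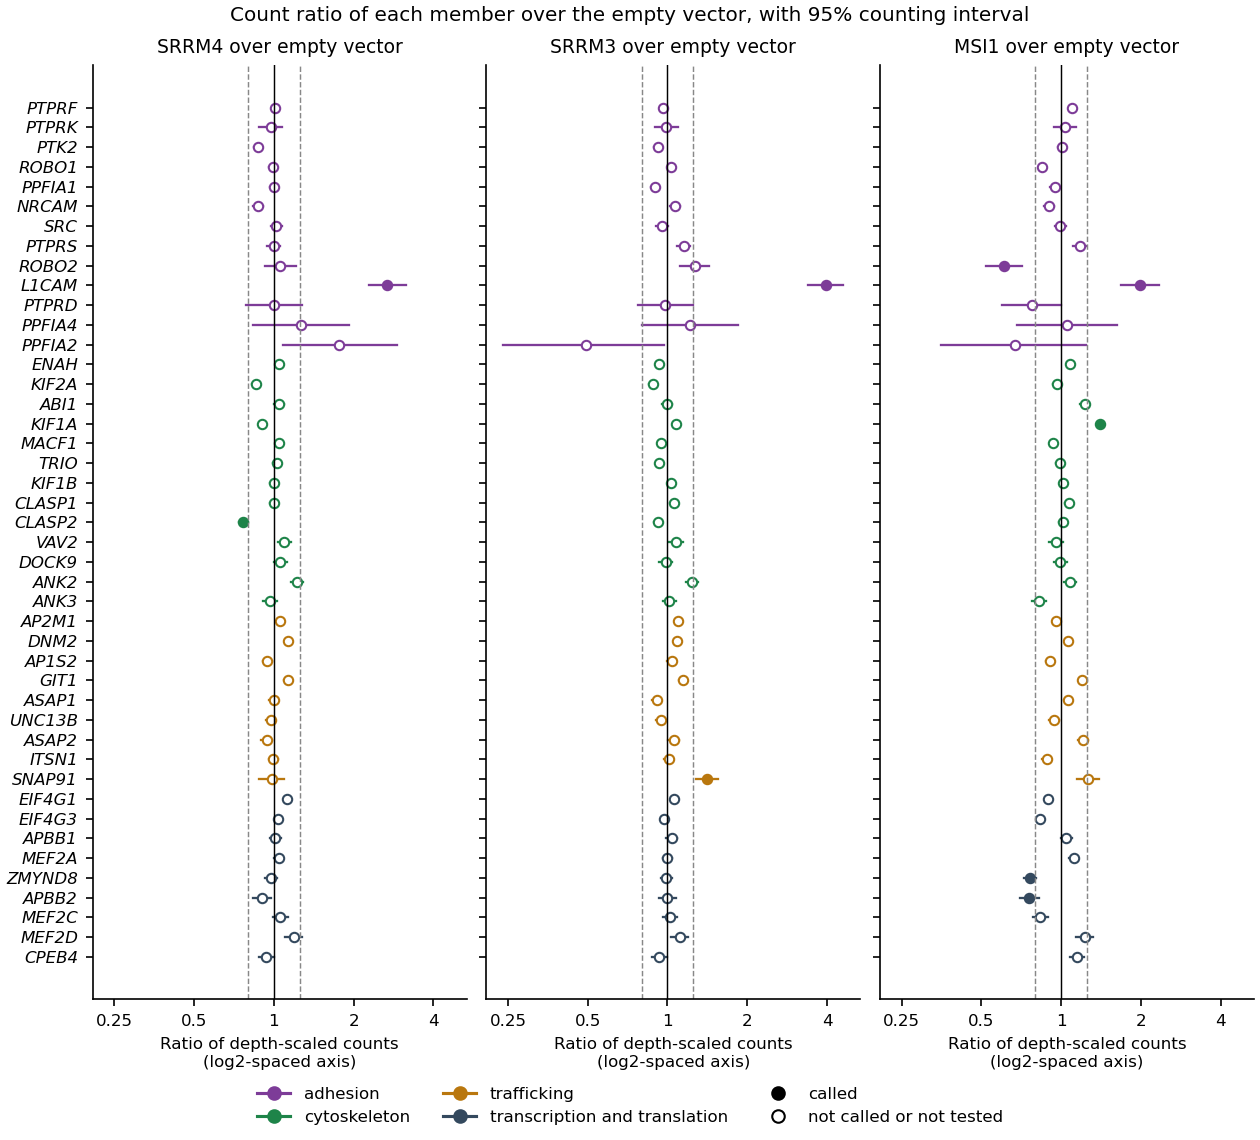
Ratio of depth-scaled counts of each host gene over the empty vector (horizontal axis, log2-spaced) in SRRM4, SRRM3 and MSI1, coloured by function; bars are exact 95% counting intervals, dashed lines mark a difference of 25% either way, and filled points were called. L1CAM lies at 2.68, 3.95 and 1.98 in the 3 panels, CLASP2 at 0.766 in SRRM4, SNAP91 at 1.41 in SRRM3, and KIF1A at 1.40 and ROBO2 at 0.611 in MSI1, while most points lie between the dashed lines.

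SRRM4 over SRRM3 compares the libraries of the related proteins, in which the transgenes were at unlike levels (63.78 cRPKM for SRRM4 and 38.53 for SRRM3). Of the hosts, 0 were called higher and 2 were called lower, where 3.1% and 6.05% of tested genes were called; the 4.76% of hosts in either direction is below the 9.16% of tested genes. The lower ones were L1CAM, given above, and SNAP91, with 2.65 cRPKM in SRRM4 against 3.80 in SRRM3, a count ratio of 0.697 (0.632 to 0.767). Neither reached the threshold with a pseudocount of 2 (log2 differences of -0.30 for L1CAM and, just under it, -0.32 for SNAP91). Short of the rule were CLASP2 (10.88 cRPKM in SRRM4 and 13.07 in SRRM3), NRCAM (10.12 and 12.39), KIF1A (17.27 and 20.53), ASAP2, an Arf GTPase-activating protein (9.46 and 10.64), APBB2 (4.82 and 5.36) and EIF4G3 (64.32 and 60.15). The median log2 difference was -0.020 for the hosts and -0.0071 for all tested genes.

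Both SRRM libraries were above both others by at least 25% for 1 host, L1CAM, where 0.708% of tested genes met that rule, and below both by the same factor for 0 hosts, where 0.323% did. Without a minimum gap, 8 hosts had both SRRM libraries above both others: ANK2, AP2M1, DNM2, EIF4G1, L1CAM, MEF2C, ROBO2 and VAV2. Another 5 had them below: CLASP2, CPEB4, KIF2A, PTK2 and PTPRK. Over all tested genes 15.5% and 18.9% showed these orders, so 8 and 5 of 42 are near the background.

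Paralogs of the hosts that are not on the list were set beside them. Of 51 such paralogs, 39 passed the filter, and 5 were called higher and 1 lower in SRRM4, 6 and 2 in SRRM3, and 5 and 0 in MSI1 over the empty vector; 1 was higher and 1 lower in SRRM4 over SRRM3. These are 15.4%, 20.5%, 12.8% and 5.13% of the 39 in the same order, beside 4.45%, 8.47%, 10.7% and 9.16% of all tested genes. The median log2 differences were 0.024, 0.045, 0.064 and -0.020, beside -0.0035, 0.0029, 0.0156 and -0.0071. The list was chosen with earlier results of these data known, so these shares describe the list and not paralogs at large. DNM1, CPEB1 and PPFIA3, named after their values were seen, were called higher in both SRRM libraries over the empty vector, as were UNC13A and APBB3. CPEB1 and PPFIA3 were also called higher in MSI1, with log2 differences of 0.33 in SRRM4, 0.42 in SRRM3 and 0.62 in MSI1 for CPEB1, and of 0.42, 0.33 and 0.51 for PPFIA3. Past 2-fold with an interval excluding 1 were UNC13A in both SRRM libraries and APBB3 in SRRM4. UNC13A, a priming factor of synaptic vesicles, had 3.02 cRPKM (1771 reads) in SRRM4, 3.23 (1971) in SRRM3, 0.16 (98) in MSI1 and 0.12 (75) in the empty vector, and it passed the filter only through the SRRM libraries. Its count ratio over the empty vector was 24.3 (19.3 to 31.1) in SRRM4 and 25.9 (20.6 to 33.1) in SRRM3. The host UNC13B stayed between 11.71 and 12.44 cRPKM, so UNC13A came to 24.9% of UNC13B in SRRM4 and 27.5% in SRRM3, against 0.965% in the empty vector. APBB3 had 4.90 cRPKM (518 reads) in SRRM4, 4.31 (476) in SRRM3, 2.0 (221) in MSI1 and 1.97 (215) in the empty vector, a count ratio of 2.48 (2.11 to 2.92) in SRRM4 and 2.19 (1.86 to 2.58) in SRRM3 over the empty vector. APBB3 overlaps SLC35A4 on the opposite strand, which had 7767 to 8523 reads, and the sources used here do not state whether the counting used strand. KIF1C, named after its values were seen, had 20.53 cRPKM in SRRM4, 21.03 in SRRM3, 30.18 in MSI1 and 28.98 in the empty vector, below the empty vector in both SRRM libraries where KIF1B was level.

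**Figure D5:**
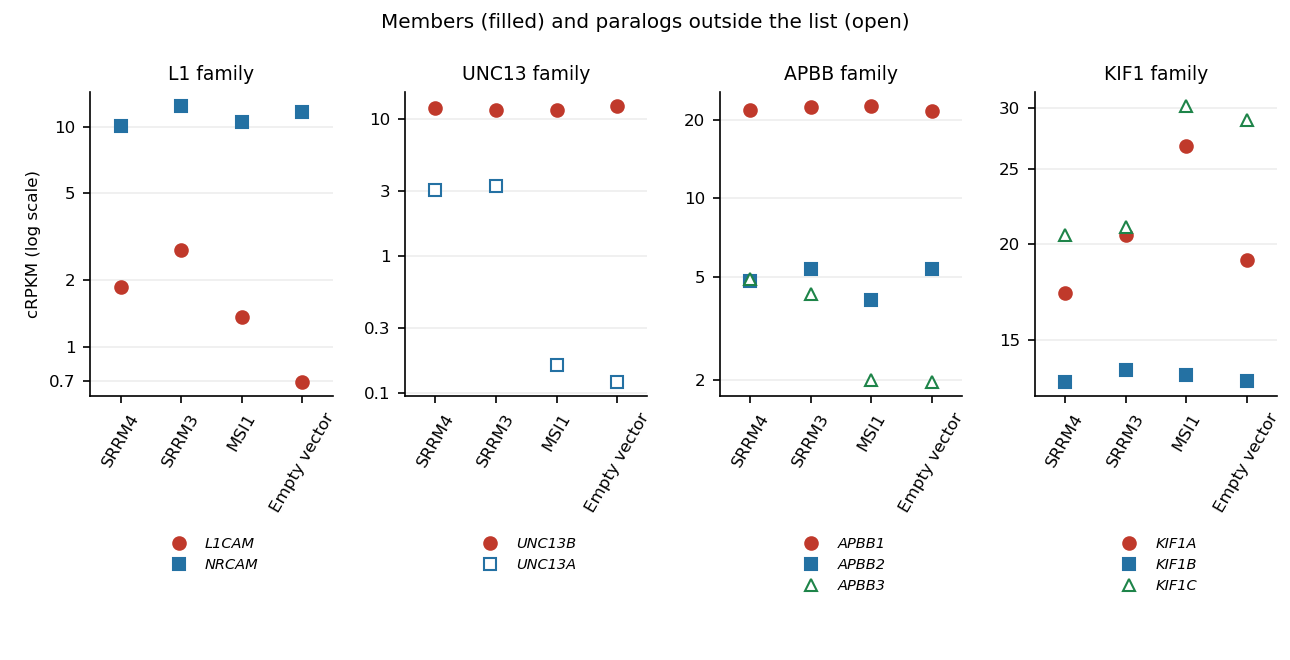
Level (vertical axes, cRPKM, log scale, a separate range in each panel) of hosts on the list (filled) and paralogs off it (open) in the SRRM4, SRRM3, MSI1 and empty-vector libraries for 4 families. UNC13A is at 3.02 and 3.23 cRPKM in the SRRM libraries and at 0.16 and 0.12 in the others, while UNC13B stays between 11.71 and 12.44; KIF1A is highest in MSI1 at 26.78.

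Of 29 genes listed as regulators of microexon splicing, 23 passed the filter. Apart from the induced genes, none of these 23 reached 2-fold over the empty vector in any library with an interval excluding 1. NOVA2, named after its values were seen, was below the filter. It had 228 reads in SRRM4, 375 in SRRM3, 311 in MSI1 and 130 in the empty vector. Its count ratio over the empty vector was 1.806 (1.45 to 2.258) in SRRM4 and 2.848 (2.327 to 3.504) in SRRM3. In MSI1 the NOVA2 ratio was 2.357 (1.915 to 2.916). ELAVL3, also below the filter, had 8, 6, 9 and 1 reads in the same order of libraries. Among regulators named for their known role after their values were seen, PTBP1, a repressor of neural exons, was at 191.49 cRPKM in SRRM4, 187.82 in SRRM3, 168.24 in MSI1 and 171.18 in the empty vector. SRSF11 and RNPS1, cofactors of SRRM4 at microexons, lay between 55.74 and 60.44 and between 139.57 and 193.61 cRPKM. Among the 20 regulators left without the induced genes, 1 (ELAVL2) was called lower in MSI1 and 0 were called in the other comparisons. RBFOX1 and NOVA1 were at or under the floor in all 4 libraries.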

How the data were processed

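RNA-seq of 4 HEK293 libraries was used, 1 per group, with groups taken from the labels. For each gene the deposited files give an Ensembl ID, the RPKM in its corrected form (cRPKM), and a raw read count. The submitters' processing notes name GRCh38 (hg38) as the build. The aligner, counting program, annotation release and any use of strand: not given in the sources used here. Over 3725 well-covered genes, count over cRPKM followed the library totals to within 0.047%. The files list 41614 genes; 1426 without a value were left out. Symbols, coordinates and exons come from GENCODE 29, which names 39941 of the 40188 genes; exon sequences come from its transcripts.

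Folds used cRPKM + 0.5 for genes with a mean of at least 1 cRPKM (12706; 12703 without the 3 induced genes). Intervals are exact conditional (Clopper-Pearson) 95% intervals. Calling was tested on simulated counts. Most hosts named with values were called, among the 3 highest or 2 most different of their group, or below the filter. The lowest of each group and the 9 widest were added after their values were seen. Outside these rules, MEF2A, MEF2C, ROBO1, KIF1B, CLASP1 and UNC13B were given with values beside relatives. Members and lists were chosen with earlier results of these data known. Alternatives were other pseudocounts, filters, folds, centring, TMM scaling and MSI1 as control. TMM factors came from edgeR 4.0.16 (R 4.3.3), intervals from scipy 1.17.1, tables from pandas 2.3.3 and numpy 2.4.6 under Python 3.11.15, and plots from matplotlib 3.10.9. With 1 library per group there was no test.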

Additional observations from a re-analysis of the deposited data

How the results depend on the processing

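No paired analysis was possible because each group has 1 library, and for the same reason no library could be left out as a replicate. Against the empty vector, host calls numbered 2 for SRRM4, 2 for SRRM3 and 5 for MSI1; SRRM4 against SRRM3 gave 2. The share of all tested genes called under the same setting follows each count below in parentheses. With a pseudocount of 2 they were 1 for SRRM3 (4.64%), 2 for MSI1 (6.04%) and 0 for SRRM4 against SRRM3 (5.0%). With a mean of at least 5 cRPKM, which leaves 32 hosts and drops L1CAM, ROBO2, SNAP91 and APBB2, they were 1 for SRRM4 (2.71%), 0 for SRRM3 (5.55%), 2 for MSI1 (7.64%) and 0 for SRRM4 against SRRM3 (6.14%). With a 1.5-fold rule they were L1CAM alone for SRRM4 (0.992%), SRRM3 (1.91%) and MSI1 (2.21%), 1 each, and 0 for SRRM4 against SRRM3 (1.62%). With MSI1 in place of the empty vector they were 7 for SRRM4 (13.4%), 4 of them higher, and 5 for SRRM3 (13.8%), 4 of them higher; L1CAM was higher in both, with count ratios of 1.355 and 1.99, as was ROBO2, and KIF1A was lower in both. Hosts with both SRRM libraries on one side of both others numbered 1 with a gap of 25%, 13 with any gap and 0 with a 1.5-fold gap. Over all tested genes, both SRRM libraries were above for 0.708%, 15.5% and 0.378% in the same order of gaps, and below for 0.323%, 18.9% and 0.102%. The other 21 recomputed counts, including those with TMM scaling, stayed within 1.5 times, and the 26 recomputed medians lay between -0.0301 and 0.0433 on the log2 scale, so close to 0 that those of SRRM3 and MSI1 changed sign under some settings. Of 84 recomputed differences of called hosts, 69 kept their call, 15 fell short of it and 0 changed sign.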
